A study of Drosophila melanogaster with 4 samples.

Results

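The sequences 2LHet, 3LHet and 3RHet are stretches of pericentric heterochromatin of the Drosophila melanogaster genome, assigned to the left arm of chromosome 2 and to the left and right arms of chromosome 3 but not joined to the assembled arms in FlyBase release 5. Every H2Av-enriched region listed on them was taken, by the name of the sequence alone and with no threshold of width or score. They hold 484 of 9667 regions of ChIP replicate 1, 141 of 4664 regions of ChIP replicate 2 and 419 of 7944 regions of a combined list, or 1044 of 22275 in all. The scaffolds measure 0.369 Mb (2LHet), 2.56 Mb (3LHet) and 2.52 Mb (3RHet).

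H2Av is the H2A variant of the fly and stands in for both H2A.Z and H2A.X of other animals. It replaces H2A in part of the nucleosomes, sits next to the start sites of many active genes, and is also found in heterochromatin, where flies lacking H2Av fail to form a normal silent state. Pericentric heterochromatin is rich in transposons and simple repeats, carries methylated H3K9 and the protein HP1a, and still holds genes that are transcribed within it. Because much of its sequence occurs in several copies, short reads often cannot be placed on it uniquely.

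Chromatin came from nuclei of wild-type Oregon-R larvae in instar 3, the modENCODE stock of that strain. It was crosslinked with formaldehyde, sonicated and precipitated with an antibody labelled H2AV 9751 in 2 ChIP libraries, and 2 input libraries served as controls for calling regions. All libraries share strain, genotype and stage. The extract was made from homogenized tissues, so the lists mix tissues, and a place with H2Av in fewer cells cannot be told apart from a place with less H2Av per cell. Nothing in the labels tells if larvae were collected anew for each replicate, so the spread between replicates may be technical. Read depth is unknown and 2 libraries give little precision. Genes were not placed on the scaffolds, so places are named by position.

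H2Av regions covered much of all 3 scaffolds in replicate 1 and much less in replicate 2. On 2LHet, regions took up 43.0% of bases in replicate 1 and 25.9% in replicate 2 (34.5% ± 12.1, SD, n = 2), and 48.2% in the combined list. On 3LHet they took up 42.3% and 12.9% in replicates 1 and 2 (27.6% ± 20.8, SD, n = 2), and 42.0% in the combined list. On 3RHet they took up 27.0% and 6.53% (16.8% ± 14.5, SD, n = 2), and 18.7% in the combined list. The order of the scaffolds was the same in each replicate, with 2LHet first and 3RHet last, but 2LHet and 3LHet lay close together in replicate 1 and the SDs of all 3 overlap. The lists were not alike in length, and replicate 1 covered more than replicate 2, by a ratio of 1.66 on 2LHet, 3.27 on 3LHet and 4.13 on 3RHet. The ratio was 1.56, 2.10 and 2.02 on the 1 Mb of 2L, 3L and 3R nearest the centromere, and 1.42 on the 3 whole arms together. These differences were not tested, because 2 libraries are too few for an exact test to reach any usual threshold.

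**Figure D1:**
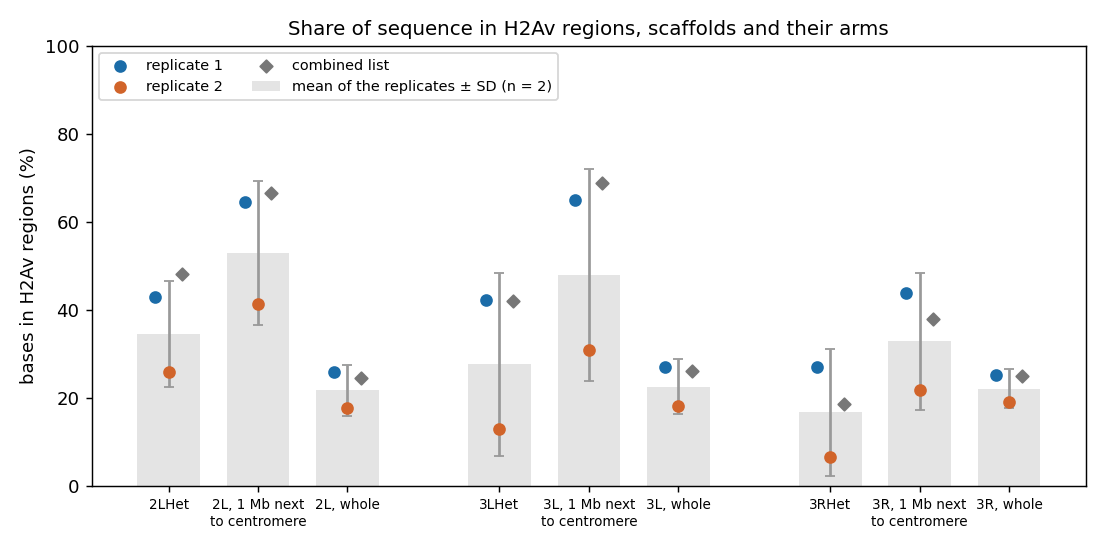
Percent of bases in H2Av regions (y axis) for each scaffold, for the 1 Mb of its own arm next to the centromere and for its whole arm; points are the 2 replicates and the combined list, bars and whiskers the mean and SD of the replicates (n = 2). In each replicate every scaffold lies below the 1 Mb arm end beside it, and 2LHet alone lies above its whole arm in both replicates.

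Set against its own assembled arm, 2LHet was the scaffold that stood higher in both replicates. Its coverage was 1.67 times that of 2L in replicate 1 and 1.47 times in replicate 2, which averages 0.65 ± 0.13 on the log2 scale (SD, n = 2). The fold of 3LHet over 3L was 1.57 in replicate 1 and 0.71 in replicate 2, so the replicates disagreed in direction, with a log2 mean of 0.08 and an SD of 0.81. The fold of 3RHet over 3R was 1.07 in replicate 1 and 0.345 in replicate 2, with a mean log2 fold of -0.72 and an SD of 1.15. Neither scaffold of chromosome 3 therefore differed from its arm beyond the spread between replicates.

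All 3 scaffolds were less covered than the 1 Mb of their arm nearest the centromere, in each replicate. For 2LHet the coverage of 43.0% and 25.9% in replicates 1 and 2 compared with 64.5% and 41.4% for the end of 2L (log2 mean -0.63 ± 0.06, SD, n = 2). For 3LHet the end of 3L had 65.1% and 31.0% (mean log2 fold -0.94 ± 0.45, SD, n = 2), and for 3RHet the end of 3R had 43.9% and 21.8% (mean log2 fold -1.22 ± 0.73, SD, n = 2). Each of these mean folds was larger in size than its SD, which is a weak yardstick with n = 2, and none was tested. Against the 2 Mb nearest the centromere the mean log2 folds were -0.22, -0.82 and -1.32 for 2LHet, 3LHet and 3RHet.

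**Figure D2:**
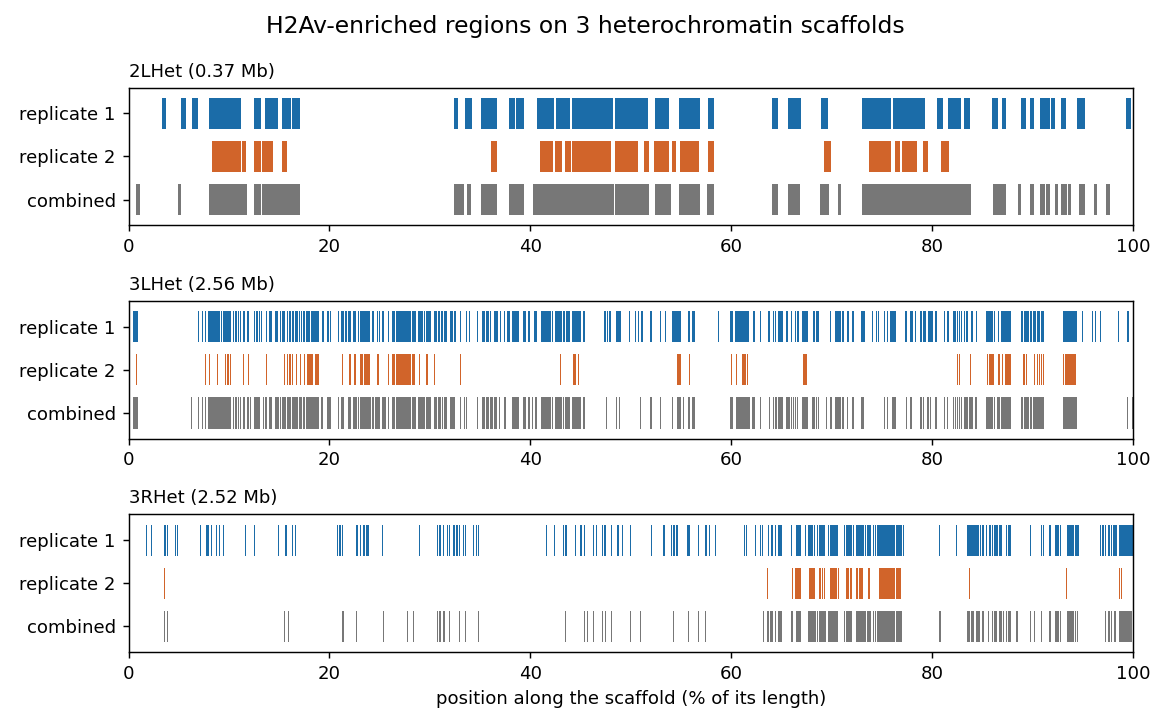
Position of every H2Av region along 2LHet, 3LHet and 3RHet (x axis, percent of the scaffold's length), 1 row for each list. The regions of replicate 2 fall mostly where replicate 1 and the combined list are dense, and on 3RHet 24 of its 30 regions stand in a single stretch.

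On 2LHet, the smallest scaffold, the main blocks of replicate 2 were also marked in replicate 1, which held many further places. It carried 38 regions in the first replicate, 23 in the second and 37 in the combined list. Regions of both replicates that overlap or touch were merged into places, of which 2LHet had 39, and 17 of them held a region of each replicate. These 17 lay between 29663 and 305682, with widths around a median of 6064 bp. The replicates shared 85.6 kb, which makes up 54.0% of what replicate 1 covered and 89.5% of what replicate 2 covered.

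The place with most shared bases on 2LHet lay at 162981 to 177929. It held a region of 14926 bp with a score of 1.90 in replicate 1 and a region of 14236 bp with a score of 1.71 in replicate 2, which was the widest of its scaffold in each replicate. The next, at 29663 to 41422, held 11760 bp in replicate 1 (score 2.63) and 10691 bp in replicate 2 (score 1.58), and the replicate 2 region lay wholly inside the other. The scores are the authors' own and are read within a list only.

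Of the remaining leading places of 2LHet, those at 178584 and 280570 were split in replicate 2. At 178584 to 191121 replicate 1 had a single region of 12136 bp and replicate 2 had 3 regions of 10147 bp in all. At 280570 to 293708 a replicate 1 region of 11891 bp again faced 3 regions of replicate 2, of 9371 bp in all. At 269297 to 279999 each replicate had a single region, of 10606 bp and 7985 bp in replicates 1 and 2. All 5 leading places were at least 98.9% inside the combined list.

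Places of a single replicate on 2LHet were narrow. Replicate 1 alone marked 20 places with a median width of 2174 bp, the widest at 242128 to 246941 (4814 bp), 334622 to 338212 (3591 bp) and 142206 to 145107 (2902 bp). Replicate 2 alone marked 2 places, at 41734 to 43234 (1501 bp) and at 199427 to 200871 (1445 bp). These 2 narrow regions had the highest scores of replicate 2 on the scaffold, 2.58 and 2.05. The combined list held the first whole and none of the second. The highest score of replicate 1 on 2LHet, 2.84 at 330832 to 332470, likewise belonged to a narrow region (1639 bp) that replicate 2 lacked, while the second highest, 2.64 at 212583 to 214860, was found to 97.3% in replicate 2.

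The far end of 2LHet was marked in replicate 1 and not in replicate 2. From 301329 to the end of the scaffold, 67.5 kb, replicate 2 had no region, and 11 regions of replicate 1 covered 37.1%. Stretches without any region in all 3 lists lay at 62864 to 119622 (56.8 kb) and 214959 to 236154 (21.2 kb). No other stretch of at least 20 kb on 2LHet was empty in all 3 lists.

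On 3LHet, replicate 1 marked regions along much of the scaffold, with a gap of 154.3 kb at 22986 to 177243, and replicate 2 marked patches of it. It carried 246 regions of replicate 1 and 88 of replicate 2, and the combined list had 249. Of 244 places, 59 held both replicates, 182 replicate 1 alone and 3 replicate 2 alone. Shared bases came to 302.5 kb, or 28.0% of replicate 1 and 91.6% of replicate 2.

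Regions of replicate 2 less than 50 kb apart were joined into runs, a choice made after seeing the data. The longest run on 3LHet reached from 543866 to 845266 (301.4 kb) with 21 of the 88 regions. Inside it replicate 1 covered 64.9% and replicate 2 36.1%, against 39.3% and 9.83% on the rest of 3LHet. The contrast in replicate 2 follows in whole or in part from drawing the run on its regions. Another run of 21 regions lay at 194322 to 483538, covered to 62.1% in replicate 1 and 23.3% in replicate 2, and a run of 16 regions lay at 2107979 to 2327543, covered to 52.6% and 28.3%. Replicate 1, which was not used to set the runs, covered 42.3% of the scaffold at large. It stood lower than that in the run of 3 regions at 1395546 to 1427690, with 35.0%.

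The widest shared place of 3LHet was at 680095 to 718993. Replicate 1 had a single region of 38256 bp there with a score of 1.79, and replicate 2 had 2 regions of 37539 bp in all with a top score of 1.36. The replicates shared 94.9% of this place. It is the widest region of 3LHet in all 3 lists, and its combined region measured 38941 bp.

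Other wide places of 3LHet lay towards its far end, inside the longest run and in the run at 194322 to 483538. The place at 2380744 to 2412336 spanned 31.6 kb with 2 regions in each replicate, which shared 26220 bp. The place at 2229641 to 2245298 held a region of 15446 bp in replicate 1 (score 2.45) and of 15280 bp in replicate 2 (score 1.78), which shared 15068 bp. At 588607 to 614253 they shared 20357 bp and at 451421 to 472151 13064 bp.

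Wide regions of 3LHet were not always shared. The second widest region of replicate 1, at 202438 to 232918 (30481 bp, score 1.71), was covered to only 11.7% by 2 regions of replicate 2. The combined list marked it nearly whole, with 30219 bp. The widest places of replicate 1 alone were at 981511 to 994098 (12588 bp), 1002199 to 1011677 (9479 bp) and 1942453 to 1951879 (9427 bp).

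The highest scores of 3LHet belonged to narrow, unshared regions in replicate 1, and in replicate 2 this held for the first score alone among its first 3. In replicate 1 they were 4.42 at 509676 to 511018, 3.88 at 2016214 to 2017883 and 3.64 at 1030596 to 1032829, in regions of 1343, 1670 and 2234 bp. Replicate 2 held none of the 3. In replicate 2 the highest score, 2.69, fell on a region of 1346 bp at 2140447 to 2141792 that replicate 1 lacked. The next scores of replicate 2, 2.31 at 2225960 to 2227507 and 1.84 at 588607 to 595908, fell on regions of 1548 and 7302 bp that were found to 100% and 85.4% in replicate 1. The other places of replicate 2 alone were at 3377 to 4751 and 580141 to 581690, with scores of 0.64 and 0.55.

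Replicate 2 left 6 stretches of at least 100 kb of 3LHet empty, which replicate 1 and the combined list filled to very different degrees. In the longest, 1810354 to 2107978 (297.6 kb), replicate 1 covered 36.4% and the combined list 24.9%. From 845267 to 1058152 (212.9 kb) replicate 1 covered 44.9% and the combined list 42.4%, as much as on the scaffold at large. From 22206 to 194321 (172.1 kb) these were 4.08% and 4.85%, so this stretch was almost bare in every list. Stretches of at least 20 kb empty in all 3 lists numbered 10 on 3LHet. The 3 longest were 22986 to 159853 (136.9 kb), 1442175 to 1499668 (57.5 kb) and 1160542 to 1210054 (49.5 kb).

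On 3RHet, most regions of replicate 2 lay in a single block, where replicate 1 was also dense. Replicate 2 had 30 regions on this scaffold, and 24 of them lay between 1601009 and 1936743, a run of 335.7 kb that makes up 13.3% of 3RHet. Replicate 1, which had no part in setting the block, covered 63.2% inside and 21.4% outside. The block was drawn from replicate 2, so the remaining values follow from that choice in whole or in part and are a description. Replicate 2 covered 46.1% inside and 0.449% outside, and the combined list, which is not independent of it, 67.4% and 11.2%. Of the 22 places found in both replicates, 16 lay in the block, with 144.6 of the 152.2 kb that the replicates shared.

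Outside this block 3RHet was marked almost entirely in replicate 1. Of 199 places on the scaffold, 176 were found in replicate 1 alone and 1 in replicate 2 alone, at 1778710 to 1780415 inside the block. The 6 regions of replicate 2 outside the block had a median width of 1542.5 bp and none exceeded 1985 bp. They overlapped regions of replicate 1 in all 6 cases.

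The widest places of 3RHet stood in the block in every list. At 1878654 to 1920688 replicate 1 had a region of 41294 bp with a score of 1.79, and replicate 2 had 2 regions of 40436 bp in all with a top score of 1.11. They shared 94.4% of the 42.0 kb. At 1756882 to 1777344 the replicate 1 region measured 20463 bp (score 1.75) and the replicate 2 region, wholly inside it, 18493 bp (score 1.25).

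Further leading places of the block lay at 1821971 to 1843511, 1922267 to 1938767 and 1797139 to 1813590. The replicates shared 16861, 14414 and 13212 bp of them. At the first, a single region of 21541 bp in replicate 1 was met by 3 regions in replicate 2. In each of the lists, the 3 widest regions of 3RHet all belonged to these 5 places.

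Replicate 1 alone marked wide places nearer the far end of 3RHet. They lay at 2355882 to 2368821 (12940 bp, score 1.84), 2505560 to 2516928 (11369 bp, score 1.16) and 2371614 to 2380403 (8790 bp, score 1.16). From 2435501 to 2516928, the last run of replicate 1, its 13 regions covered 73.1% and replicate 2 covered 5.81%. The combined list covered 60.1% of the same run. The highest scores of replicate 1 on 3RHet were 3.84 at 1725359 to 1728845, 3.28 at 2467603 to 2469893 and 3.23 at 2461658 to 2463673, and replicate 2 had no region at any of them. The highest of replicate 2 were 1.99 at 1712816 to 1714338 and again at 1716334 to 1719641, and 1.94 at 1729839 to 1731210, all in the block and all found in replicate 1.

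The longest stretch without a region of replicate 2 was the part of 3RHet from 90833 to 1601008, 1510 kb. It held 105 whole regions of replicate 1, which were narrow (median 1981 bp, widest 6943 bp), and the covered share was 16.7% in replicate 1 and 4.67% in the combined list. The combined list overlapped 29 of the 105, or 27.6%, against a background of 78.9% of all replicate 1 regions. That background includes regions with a replicate 2 partner, 50.4% of all, and the 105 were picked where replicate 2 has none. The combined list is not independent of replicate 2, so part of the gap may follow from that choice, which was not tested. Of the 105, 62 (59.0%) had a score that recurs exactly elsewhere in the replicate 1 list. That share was 52.5% on 3RHet as a whole and 30.7% over all replicate 1 regions. No stretch of this kind was as long in replicate 1, whose longest on 3RHet was 103.1 kb. Stretches of at least 20 kb empty in all 3 lists numbered 25 on 3RHet. The 3 longest were 447643 to 522596 (75.0 kb), 1471177 to 1543146 (72.0 kb) and 971756 to 1037747 (66.0 kb).

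**Figure D3:**
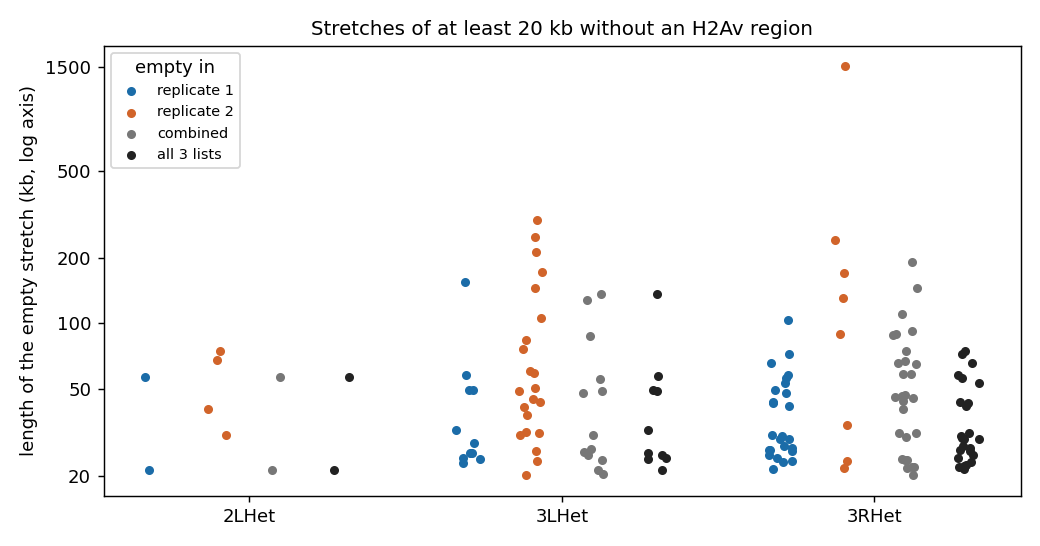
Length of each stretch of at least 20 kb without a region (y axis, log scale, kb), by scaffold and by the list it is empty in; each point is 1 stretch. Replicate 2 has the longest stretch on each scaffold, and the stretch of 1510 kb on 3RHet stands alone.

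Empty stretches of at least 20 kb took up a different part of each scaffold. In replicate 1 they made up 21.2% of 2LHet, 19.3% of 3LHet and 39.9% of 3RHet, in 2, 11 and 25 stretches. In replicate 2 they made up 57.9%, 74.0% and 88.2% of the same scaffolds, in 4, 22 and 8 stretches. Stretches empty in all 3 lists made up 21.1% of 2LHet, 17.4% of 3LHet and 36.7% of 3RHet. Replicate 2 added almost nothing to the stretches left by replicate 1, since its regions nearly always fell on a region of replicate 1. Whether an empty stretch lacks H2Av or lacks sequence that reads can be placed on was not tested.

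Regions of replicate 2 on the scaffolds were nearly all found in replicate 1, as over the whole series, while regions of replicate 1 were seldom found in replicate 2. With an overlap of at least 1 bp counted as found, 135 of 141 replicate 2 regions, or 95.7% (95% Clopper-Pearson interval 91.0 to 98.4), had a partner, against a background of 95% over all 4664 regions. In the other direction it was 106 of 484 replicate 1 regions, or 21.9% (18.3 to 25.9), against a background of 50.4% over all 9667. On the arms 2L, 3L and 3R together the share was 53.3% (52.0 to 54.7). Replicate 2 held 2589 regions there against 5183 in replicate 1. On the scaffolds it held 141 against 484, and a shorter list offers fewer partners. With both whole lists cut to the same length, keeping the higher scores, the share on the scaffolds was 23.6%. What part list length has in the lower share was not tested. The intervals cover counting error only, since regions of a library are not independent, and the difference was not tested.

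The scaffolds differed in how many replicate 1 regions had a partner in replicate 2. It was 18 of 38 on 2LHet, or 47.4% (31.0 to 64.2), 64 of 246 on 3LHet, or 26.0% (20.6 to 32.0), and 24 of 200 on 3RHet, or 12% (7.84 to 17.3). Replicate 2 held 23, 88 and 30 regions on 2LHet, 3LHet and 3RHet, or 62.4, 34.4 and 11.9 per Mb. Fewer regions per Mb offer fewer partners, and how much of the differences follows from that was not tested. The intervals again cover counting error only, and the differences between scaffolds were not tested. The Jaccard index, shared bases over all covered bases of both lists, was 0.508 on 2LHet, 0.273 on 3LHet and 0.22 on 3RHet. On the arms it was 0.570 on 2L, 0.561 on 3L and 0.587 on 3R. This index cannot exceed the covered bases of replicate 2 over those of replicate 1. Replicate 1 covered 1.66, 3.27 and 4.13 times as much as replicate 2 on 2LHet, 3LHet and 3RHet. On the 3 arms together the ratio was 1.42. Of the bases of replicate 2, 89.5%, 91.6% and 92.5% were shared on the scaffolds and 88.1% on the arms.

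In windows of 50 kb, every scaffold had more covered bases in replicate 1. Of 108 full windows, 105 were higher in replicate 1, none was higher in replicate 2, and 3 were empty in both. Windows ran from 0% to 87.3% in replicate 1 (median 32.5%) and from 0% to 79.6% in replicate 2 (median 0%). Replicate 2 left 20 of 51 windows of 3LHet and 39 of 50 windows of 3RHet empty, and none of the 7 on 2LHet. The Spearman correlation of the replicates across windows was 0.72 over all 108, 0.61 on 2LHet, 0.63 on 3LHet and 0.64 on 3RHet. Neighbouring windows share regions and each list is a single library, so these are descriptions.

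**Figure D4:**
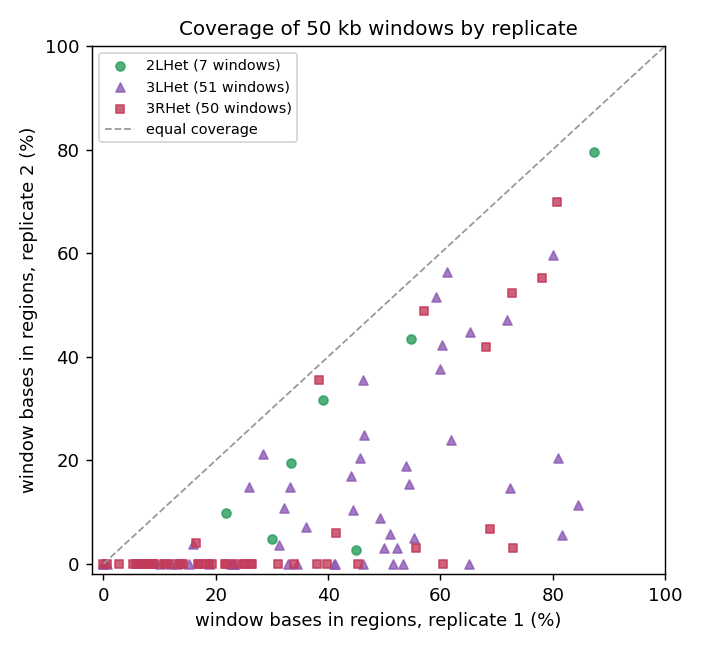
Percent of bases in regions in replicate 1 (x axis) and replicate 2 (y axis) for 108 windows of 50 kb; each point is 1 window and the dashed line marks equal coverage. No window lies above the line, and 59 windows lie on the x axis with no region of replicate 2.

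Where the replicates shared a place, the borders differed and replicate 1 was wider. On 67 places each replicate had exactly 1 region, and replicate 1 was the wider in 56 of them, with a median of 4418 bp against 2072 bp in replicate 2. Of 134 borders, 26 (19.4%) lay within 200 bp of each other, and the median distance was 976 bp. Borders matched most closely on 2LHet, with a median distance of 336 bp over 28 borders, against 930 bp over 74 on 3LHet and 1123 bp over 32 on 3RHet. Across the 67 pairs the Spearman correlation of scores was 0.56 and that of widths 0.31, with widths at 0.79 on the 14 pairs of 2LHet and 0.06 on the 16 pairs of 3RHet. In 27 of the 98 shared places replicate 2 had more than 1 region, and in 8 replicate 1 had more than 1.

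Regions of replicate 1 that replicate 2 shared were wider than those it lacked. The median width was 6035 bp for the 106 shared regions and 2183.5 bp for the 378 others. A wide region meets another more easily than a narrow one, and how much of this gap follows from that was not tested. The widest region of replicate 1 without a partner measured 12940 bp. The share of scores that recur exactly in the list was 15.1% in the shared regions and 51.1% in the others. In replicate 2 the 135 shared regions had a median of 2356 bp and the 6 others one of 1473 bp.

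**Figure D5:**
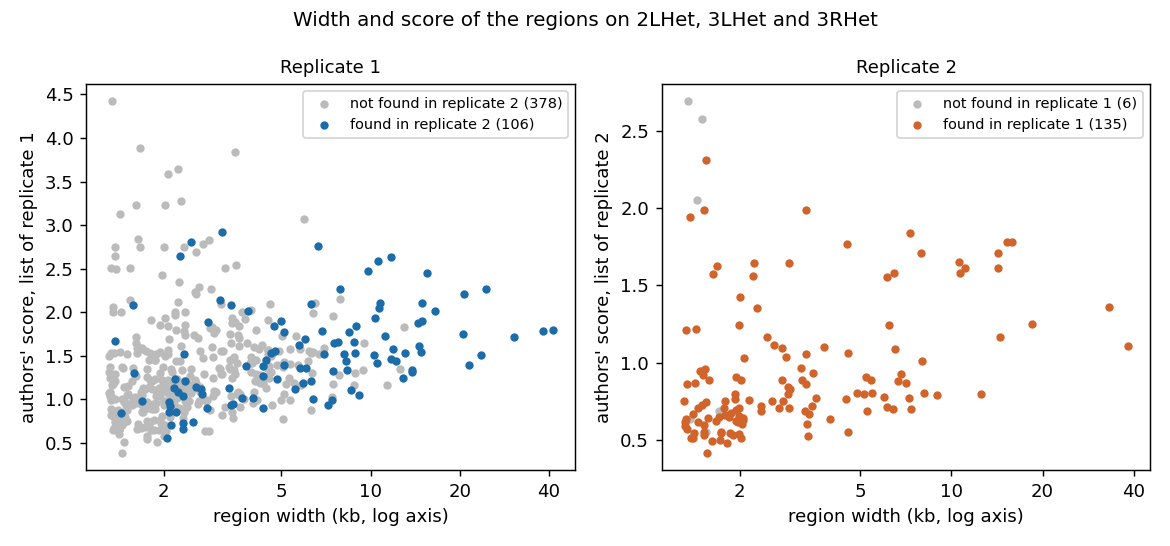
Width (x axis, log scale, kb) and authors' score (y axis) of each region on the 3 scaffolds, for replicate 1 and replicate 2; coloured points are regions found in the other replicate, grey points those that are not. The widest grey point lies at 12940 bp, and the highest scores of replicate 1 belong to narrow grey points.

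Scores on the scaffolds ranked high in replicate 1 and not in replicate 2. In replicate 1 the median score was 1.41 on 2LHet, 1.25 on 3LHet and 1.28 on 3RHet, which are percentiles 88.0, 81.5 and 83.0 of that list. In replicate 2 the medians of 1.01, 0.71 and 1.05 were percentiles 57.2, 33.4 and 60.2. In the combined list they were 0.98, 0.75 and 0.80, or percentiles 73.2, 58.2 and 61.0. So 3LHet stood lowest of the 3 in each list. On the arms 2L, 3L and 3R together the percentile of the median was 41.8 in replicate 1, 49.6 in replicate 2 and, for combined regions, 43.2.

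Exactly recurring scores were frequent here in replicate 1, and most so on 3RHet. They made up 34.2% of regions on 2LHet, 37.0% on 3LHet and 52.5% on 3RHet, and in replicate 2 8.70%, 17.0% and 20.0%. On the arms they ranged from 27.1% on 3L to 27.9% on 2L in replicate 1. Inside the block of 3RHet they made up 36.7% of 30 replicate 1 regions, against 55.3% of the 170 outside it. Their part in the high scores was not tested.

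The combined list kept the regions of replicate 2 on the scaffolds and dropped many of replicate 1 on 3RHet. It overlapped 140 of 141 replicate 2 regions, or 99.3%, against a background of 99.1%. It overlapped 33 of 38 replicate 1 regions on 2LHet (86.8%, interval 71.9 to 95.6) and 209 of 246 on 3LHet (85.0%, 79.9 to 89.2), against a background of 78.9%. On 3RHet the combined list overlapped 102 of 200, or 51.0% (43.9 to 58.1), a lower share than that background. The intervals cover counting error only, and no difference from the background was tested. Stretches of at least 100 kb that replicate 2 left empty held 159 of the 200 replicate 1 regions of 3RHet. There the combined list overlapped 67 of 159 (42.1%), against 35 of 41 elsewhere on the scaffold (85.4%). On 3LHet the corresponding counts were 58 of 91 (63.7%) and 151 of 155 (97.4%). The stretches were drawn from replicate 2, of which the combined list is not independent. The direction of both contrasts may therefore follow from that choice, and they are a description.

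Of the 419 combined regions on the scaffolds, 96 (22.9%) overlapped both replicates, against a background of 50.0% over the series. Another 248 (59.2%) overlapped replicate 1 alone, 3 (0.716%) replicate 2 alone, and 72 (17.2%) neither. Over the series these shares were 35.9%, 2.92% and 11.1%. The 96 were wide, with medians of 7729 bp and a score of 1.00, while those of replicate 1 alone had medians of 1976 bp and 0.69. The 72 found in neither were narrow, with medians of 1183 bp and a score of 1.22, but the scaffolds were not alike. On 3RHet the median score was 2.02 for the 23 regions found in neither and 1.13 for the 20 found in both, and on 3LHet it was 1.06 for 42 and 0.94 for 60. On 2LHet the order was the other way, with 0.72 for 7 regions found in neither and 1.07 for 16 found in both, as on the arms 2L, 3L and 3R with 0.36 and 0.89. Of the 72, 72.2% had a score that recurs exactly in the list, against 2.08% of the 96. Over the series the same 2 classes had 52.6% and 3.57%. The highest combined scores of 3LHet (3.39 and 3.22 for 2 regions) and 3RHet (3.68, 3.54 and 3.39) all belonged to narrow regions of 1001 to 1815 bp that neither replicate list held. On 2LHet the highest, 2.44 at 326606 to 327614, overlapped a region of replicate 1 over 101 bp, and the next, 2.22 at 354440 to 355440, was in neither.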

How the data were processed

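The authors deposited 1 list of enriched regions for each of 2 ChIP libraries and 1 combined list. The submitters' processing notes name Bowtie 0.12.7, and per the file headers coordinates are those of FlyBase release 5. For the caller, its threshold and the way of combining, nothing is given in the sources used here. The deposited score of a region is undefined there. Differences among its 10 most repeated values equalled log2 of a ratio of whole numbers up to 20 (tolerance 1e-06) in 28 of 45 pairs in replicate 1, 9 of 45 in replicate 2 and 33 of 45 in the combined list. With a natural log no pair fitted, so the spacing is that of a log2 scale. Scores were used within a list, as values and percentiles.

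Regions were read with Python 3.11.15 and numpy 2.4.6. Coverage, overlap of at least 1 bp, merged places and empty stretches of at least 20 kb were counted, after a check on simulated lists. Shares carry exact Clopper-Pearson 95% intervals (scipy 1.17.1). No p-value was computed. Arm ends are the last Mb of 2L and 3L and the first of 3R. Places were named by shared bases, regions by the 3 highest scores and widths per list, and stretches by length. Runs, windows and border distances were added after seeing the data. Members, lists and rules were chosen with earlier results of these data known. The input libraries enter only through the calls. Alternatives were score cuts, stricter overlap, a merging distance, other stretch lengths, the combined list and each replicate alone.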

Additional observations from a re-analysis of the deposited data

How the results depend on the processing

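With 2 replicates, the coverage with either left out lies within 1 SD of the mean by construction: it ran from 25.9% to 43.0% on 2LHet, 12.9% to 42.3% on 3LHet and 6.53% to 27.0% on 3RHet. The log2 fold over the whole arm ran from 0.56 to 0.74, from -0.49 to 0.65 and from -1.54 to 0.10, so its sign on 3LHet and 3RHet depends on the replicate. Over the arm end it ran from -0.67 to -0.58, from -1.26 to -0.62 and from -1.74 to -0.70. The combined list gave 48.2% on 2LHet. The log2 fold of 2LHet over 2L was 0.82 when lower-scoring regions were dropped to leave 50% of each list, 0.93 with both lists cut to equal length and 0.97 for the combined list, and over the end of 2L -0.56 with lists cut, -0.47 in the combined list and -0.22 against 2 Mb. Of replicate 1 regions, the share with a replicate 2 partner was 10.8% in the higher-scoring 50%, 14.3% with 50% of the region overlapping and 11.4% with 50% of both, and that of replicate 2 regions in replicate 1 was 87.2% and 39.0% under the last 2 rules, which are stricter by construction. Shared places of 2LHet numbered 11 in the higher-scoring 50% and 11 with regions within 1 kb merged, and those of 3LHet 16 in the higher-scoring 50%, because fewer regions were left or more were joined. Stretches of at least 50 kb numbered 1, 2 and 6, and of at least 20 kb in a single replicate 2 to 4, 11 to 22 and 8 to 25. For the other changes the cause was not tested. Of 89 values under alternatives, 68 stayed within the spread, interval or factor of 1.5 used to judge them. This count is no measure of robustness. It includes coverage and folds with either replicate left out, which stay within 1 SD by construction. The SD of 2 replicates is also wide. The log2 fold of 3LHet over 3L, 0.08, counted as unchanged at -0.49, at 0.65 and, in the combined list, at 0.69. No paired analysis was possible because each ChIP list already sets a library against its input, and region values of the inputs alone were not used here. What read depth limits cannot be stated, since it is unknown.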
